A study of Mus musculus with 32 samples.

Results

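The subunits of the respiratory chain and of ATP synthase that are encoded in the nucleus were examined in the total RNA of cultured mouse hippocampal neurons. Genes were taken by symbol (Nduf with a letter a, b, c, s or v and a digit, Uqcr, Cox4 to Cox8, Atp5, and Sdha to Sdhd) where the deposited annotation calls them protein coding. This gave 84 genes of the 51267 features in the table. Of the 84, 35 belong to complex I, 4 to complex II, 8 to complex III, 20 to complex IV and 16 to ATP synthase. The last, Atp5s, is named after ATP synthase but is not one of its structural subunits. The genes lie on 19 chromosomes. ATP synthase uses the gradient the chain builds and is not strictly part of it. A further 12 symbols fit the pattern and were left out by their annotated type. They are pseudogenes apart from Ndufb1-ps, which had 757 to 1942 counts a library and which RefSeq lists as the protein-coding gene Ndufb1.

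The cultures came from hippocampi of newborn (P0) mice, and RNA was taken at day 16 in vitro. They received 50 µM forskolin (FSK), which activates adenylyl cyclase, 30 µM DHPG, an agonist of group I metabotropic glutamate receptors, or the same volume of the solvent DMSO, each for 30 minutes. There were 6 FSK, 6 DHPG and 4 DMSO libraries of total RNA. The labels leave out the strain and sex of the mice and do not say whether replicates were separate cultures, so every p-value measures the spread between these libraries only.

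Complexes I and II feed electrons into ubiquinone from NADH and from succinate, complex III passes them to cytochrome c and complex IV to oxygen. Complexes I, III and IV pump protons as they do so, and ATP synthase lets the protons back to make ATP. All complexes but II combine nuclear subunits with subunits encoded in mitochondrial DNA, so 2 genomes supply 1 chain. Neurons depend heavily on this chain, because ion pumping after synaptic activity uses much ATP.

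The libraries fell into 2 sets that the labels do not describe. FSK 4 to 6, DHPG 6 and DMSO 2 to 4 held 38409918 to 59958600 counts, with 10.8 to 27.7% in mitochondrial rRNA, and are called deep here. FSK 1 to 3, DHPG 1 to 5 and DMSO 1 held 20677117 to 24892959 counts, with 1.47 to 2.92% in mitochondrial rRNA, and are called shallow. Treatment is therefore partly confounded with the set, and counts are given with and without a term for it. Values of single genes between FSK and DHPG come from the fit without the term unless it is named. Markers of excitatory neurons averaged 4.79 to 5.81 in log2 CPM (counts scaled to library size) and those of astrocytes 7.21 to 8.48, so mRNAs of both cell types were measured. Microglial markers averaged 4.81 and 3.90 in FSK 5 and FSK 4, against -0.24 to 1.71 in the other 14 libraries. These 2 libraries stood apart, and counts are also given without them.

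Together the subunit mRNAs took 0.586 to 1.37% of a library's counts. Their mean level on the log2 CPM scale was 6.24, 6.30, 6.31, 5.77, 5.72 and 5.94 in FSK 1 to 6. It was 6.40, 6.59, 6.67, 6.46, 6.63 and 6.07 in DHPG 1 to 6, and 6.60, 5.95, 6.11 and 5.90 in DMSO 1 to 4. The 7 deep libraries were the 7 lowest of the 16, whatever their treatment. Within the shallow set, FSK 1 to 3 lay below DHPG 1 to 5 and DMSO 1. Within the deep set, FSK 4 and FSK 5 lay below all others, and FSK 6 lay between DMSO 4 and DMSO 2. In bulk RNA, fewer cells of a type and less of an mRNA per cell cannot be told apart.

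**Figure D1:**
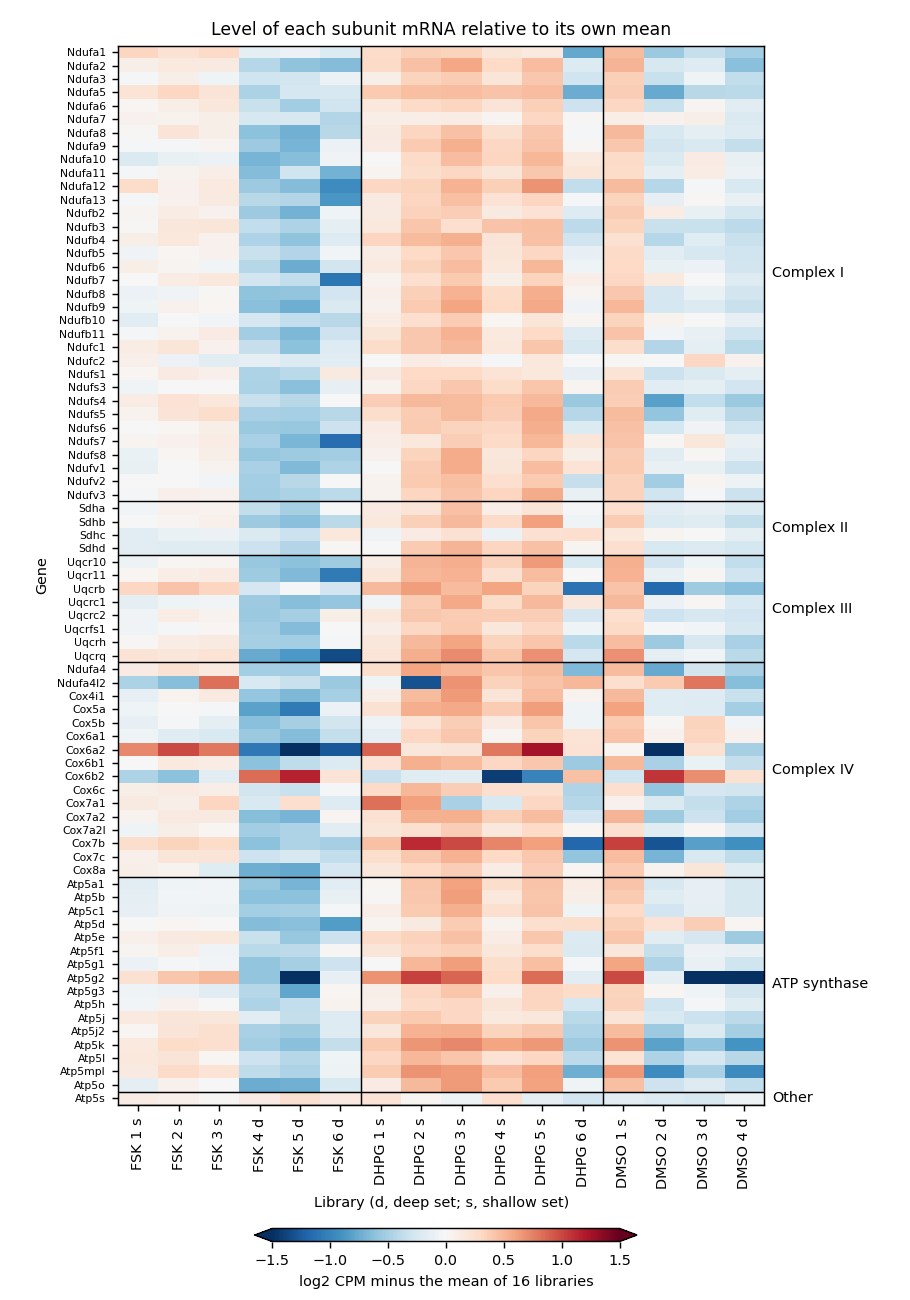
Level of the subunit mRNAs that could be tested (1 is not drawn), in each library, as log2 CPM minus the gene's mean over 16 libraries (colours stop at 1.5 either way; d, deep set; s, shallow set). DHPG 1 to 5 and DMSO 1 are above the mean for most genes, FSK 4 and FSK 5 below it, and Cox6b2 runs the other way.

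In all 5 complexes the mean of the shallow FSK libraries' subunits lay below that of every shallow DHPG library. Complex I subunits averaged 5.52 to 6.10 log2 CPM in FSK, 5.88 to 6.44 in DHPG and 5.75 to 6.37 in DMSO. Complex III averaged 6.15 to 6.82 in FSK, 6.44 to 7.23 in DHPG and 6.34 to 7.17 in DMSO, and ATP synthase 6.50 to 7.21, 6.93 to 7.63 and 6.66 to 7.54 in the same order. Complex II, which has no mitochondrially encoded subunit, averaged 6.51 to 6.95 in FSK, 7.03 to 7.40 in DHPG and 6.73 to 7.24 in DMSO. Its FSK libraries all lay below its DHPG libraries. The 13 mitochondrially encoded mRNAs did not follow this order, at 6.57 to 8.18 in FSK, 5.74 to 6.90 in DHPG and 6.33 to 7.31 in DMSO.

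**Figure D2:**
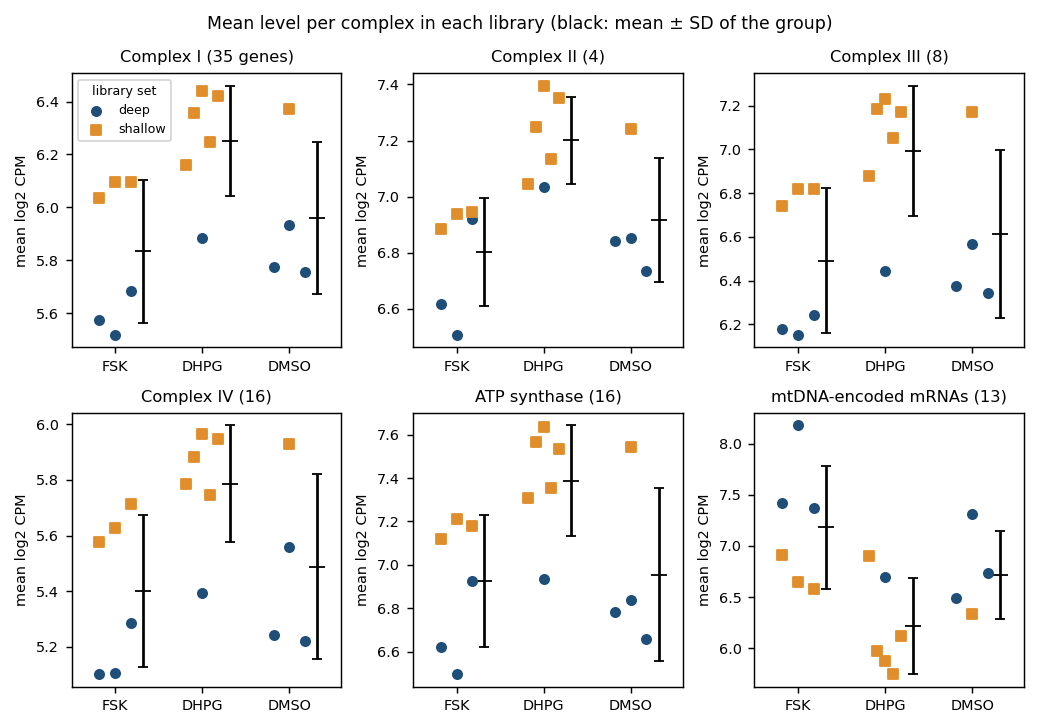
Mean log2 CPM of the subunits of each complex, and of the 13 mRNAs from mitochondrial DNA, in each library (circles, deep set; squares, shallow set; black, mean ± SD of the group). In every nuclear panel the shallow FSK libraries lie below the shallow DHPG ones, while the mitochondrial mRNAs are highest in the deep FSK libraries.

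Promoters of the group were also read, and any tie between their letters and the mRNA levels was not tested. NRF1, a transcription factor known for driving respiratory chain genes, binds sites that hold GCATGCGC. RefSeq promoters (GRCm38.p6, 250 bases before to 50 after the annotated start) were matched by symbol or synonym for 68 of the 84 genes. Searched on both strands, these letters stood in 10 of the 68 (14.7%), against 3.05% of all 27025 genes with such promoters, expressed or not. The ETS word CCGGAAG, bound by GABP, stood in 16 (23.5%), against 9.93%, and the YY1 word AAGATGGC in 10 (14.7%), against 3.19%, both on either strand. TATAAA stood in 7 (10.3%), against 15.7%. The YY1 word begins before the annotated start in Atp5f1 and Atp5j only, and otherwise at bases 23 to 39 after it, within the transcript. The words were not checked for overlap with each other. In 4 genes the NRF1 word lies before the start and overlaps its own complement on the other strand, and these are shown as windows of 70 bases on the gene's strand, with the word in capitals. They are Cox6a1 (chr5:115349080-115349149, minus strand), Atp5k (chr5:108434409-108434478, minus), Atp5g2 (chr15:102671049-102671118, minus) and Ndufa11 (chr17:56717673-56717742, plus).
Cox6a1: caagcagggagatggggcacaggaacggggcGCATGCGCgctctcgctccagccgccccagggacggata
Atp5k: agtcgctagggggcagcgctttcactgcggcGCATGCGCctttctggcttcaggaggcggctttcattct
Atp5g2: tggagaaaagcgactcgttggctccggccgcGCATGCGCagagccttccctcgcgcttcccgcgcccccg
Ndufa11: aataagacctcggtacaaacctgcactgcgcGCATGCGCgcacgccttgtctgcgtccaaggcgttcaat
The word begins 160 bases before the annotated start in Cox6a1, 48 in Atp5k, 40 in Atp5g2 and 58 in Ndufa11. The other genes with the word are Atp5l, Ndufa6, Ndufa8, Sdhb, Uqcr11 and Uqcrc1, where it lies after the start in Uqcrc1 only. A match describes these letters and is not evidence of binding.

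Subunit mRNAs were lower in FSK than in DHPG across all 5 complexes. Of the 80 genes with enough counts to test, 36 were lower and 0 higher by edgeR's quasi-likelihood test with Benjamini-Hochberg adjustment over 17173 features at 0.05. Over all features, 14.4% were called lower and 16.3% higher. Values in brackets below are log2 fold changes with their standard errors, from this fit. For FSK against DHPG they hold no term for the library set unless it is named. The median log2 fold change of the 80 was -0.43, beside 0.03 for all features, and 78 of the 80 were negative. At an unadjusted p under 0.05 stood 55 genes, against 45.2% of features. In 10 genes all FSK libraries lay below all DHPG libraries (4.03% of features), and in 0 above them (3.21%). With a term for the library set 38 genes were lower and 0 higher (11.9% and 11.4% of features), 45 were under an unadjusted p of 0.05 (40.3%), and the median was -0.28. Of the 38 called, 35 were among the 36. Without the term the medians by complex were -0.43 for I, -0.40 for II, -0.50 for III, -0.44 for IV and -0.48 for ATP synthase. With it they were -0.29, -0.31, -0.34, -0.25 and -0.27 in the same order. Without FSK 4 and FSK 5 no gene passed (31 at unadjusted p under 0.05), and with the set term added 17 did (4.48% of features lower). With library totals unscaled, 5 passed. Leaving out 1 library gave 9 (without DHPG 3), 10 (FSK 5), 14 (DHPG 5), 15 (FSK 4), 17 (DHPG 2) or 55 (DHPG 6), and within 1.5 times of 36 for the others. With the set term it gave 0 without DHPG 6 or FSK 1, 14 without DHPG 3 and 18 without DHPG 5. Shares of all features with 1 library left out, or with unscaled totals, are not given here. The adjustment runs over all features, so a changed count cannot be read as particular to the subunits.

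**Figure D3:**
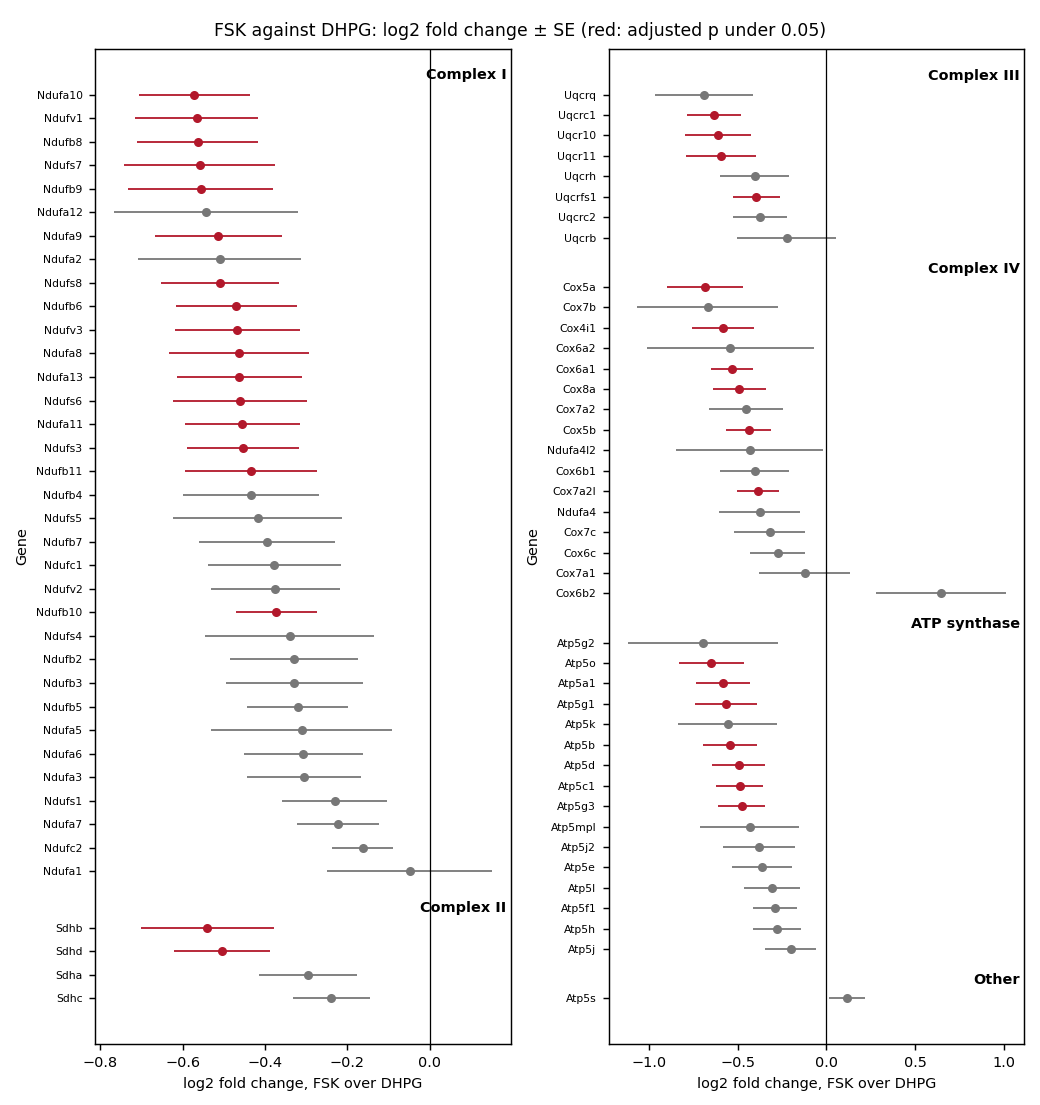
Log2 fold change of the tested subunit genes (1 is not drawn), FSK over DHPG, with its standard error (red, adjusted p under 0.05). All points but Cox6b2 and Atp5s lie below 0, and the red ones lie between -0.37 and -0.68.

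Complex I had 17 of 35 genes lower in FSK than in DHPG. Several of its core subunits were among them. Ndufv1, which binds NADH and the flavin that takes its electrons, had 80.4, 105 and 132 CPM (lowest, median and highest of 6) in FSK, against 128, 156 and 187 CPM in DHPG. The 3 deep FSK libraries and FSK 1 lay below every DHPG library (-0.57 ± 0.15, adjusted p = 0.018). Ndufs3, of the arm that joins the NADH module to the membrane, did not overlap between the groups, at 50.4 to 78.6 CPM in FSK against 80.1 to 104 CPM in DHPG (-0.45 ± 0.14, adjusted p = 0.025). The iron-sulfur subunits Ndufs7 (-0.56 ± 0.18, adjusted p = 0.033) and Ndufs8 (-0.51 ± 0.14, adjusted p = 0.021) were lower in FSK than in DHPG as well. Ndufs1, which carries the most iron-sulfur clusters of complex I, had 109, 156 and 165 CPM in FSK and 138, 170.4 and 185 CPM in DHPG and did not pass (-0.23 ± 0.13, adjusted p = 0.16). Of its FSK libraries 2 lay below all of DHPG. Ndufv2 gave -0.37 ± 0.16, adjusted p = 0.076.

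The accessory subunits surround this core and are needed for its assembly and stability. Ndufa10, an accessory subunit of the membrane arm, had 98.4, 143 and 154 CPM in FSK, against 159, 198 and 226 CPM in DHPG (-0.57 ± 0.13, adjusted p = 0.017). Its 6 FSK libraries lay below all DHPG libraries, as did those of Ndufb8 (-0.56 ± 0.15, adjusted p = 0.018) and Ndufb10 (-0.37 ± 0.10, adjusted p = 0.018). Ndufa11, 1 of the NRF1-word genes above, had 30.8 to 53.9 CPM in FSK and 51.6 to 66.7 CPM in DHPG (-0.46 ± 0.14, adjusted p = 0.026). Ndufa9, Ndufb9, Ndufa13, Ndufb6, Ndufs6, Ndufv3 and Ndufa8 were also lower, and so was Ndufb11, whose adjusted p of 0.0499 was just under the limit. Their log2 fold changes ran from -0.56 in Ndufb9 to -0.43 in Ndufb11. Not passing were Ndufa1, an accessory subunit encoded on the X chromosome, with 24.6, 29.8 and 35.4 CPM in FSK and 16.6, 33.2 and 36.1 CPM in DHPG (-0.05 ± 0.20, adjusted p = 0.86), and Ndufc2 (-0.16 ± 0.07, adjusted p = 0.10). Ndufb4 shares sequence with the annotated pseudogene Ndufb4c, which had 750 to 1304 counts a library, so its value (-0.43 ± 0.17, adjusted p = 0.056) is uncertain.

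Complex II, which is also succinate dehydrogenase of the citric acid cycle, had 2 of 4 genes lower. Sdhd, a membrane anchor, had 69.2, 83.0 and 95.3 CPM in FSK, against 94.6, 120.2 and 134 CPM in DHPG (-0.50 ± 0.12, adjusted p = 0.016). FSK 6 was the highest FSK library and the only one within the DHPG range. Sdhb, the iron-sulfur subunit, had 70.2, 95.2 and 114 CPM in FSK and 103, 136 and 166 CPM in DHPG (-0.54 ± 0.16, adjusted p = 0.025), and 3 FSK libraries lay below all of DHPG. The flavoprotein Sdha (-0.30 ± 0.12, adjusted p = 0.066) and the other anchor Sdhc (-0.24 ± 0.09, adjusted p = 0.060) did not pass.

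In complex III 4 of 8 genes were lower. Uqcrc1, a core protein on the matrix side, had 119, 148 and 182 CPM in FSK, against 181, 234 and 276 CPM in DHPG, with 5 FSK libraries below all of DHPG (-0.63 ± 0.15, adjusted p = 0.017). Its partner Uqcrc2 had 130.4, 192 and 209 CPM in FSK and 161, 249 and 255 CPM in DHPG and did not pass (-0.37 ± 0.15, adjusted p = 0.070). The Rieske iron-sulfur protein Uqcrfs1, which takes electrons from ubiquinol, was lower in FSK than in DHPG (-0.39 ± 0.13, adjusted p = 0.035). So were the small subunits Uqcr10 (-0.61 ± 0.18, adjusted p = 0.026) and Uqcr11 (-0.59 ± 0.20, adjusted p = 0.035). Uqcrq had the most negative estimate of the complex, with 19.0, 41.5 and 55.6 CPM in FSK against 40.3, 67.3 and 78.6 CPM in DHPG, but a wide error (-0.69 ± 0.27, adjusted p = 0.065). With the set term it was -0.44 ± 0.12, adjusted p = 0.024. Uqcrb, a small ubiquinone-binding subunit, gave -0.22 ± 0.28, adjusted p = 0.55.

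Complex IV had 6 of 16 tested genes lower. Cox6a1, a regulatory subunit, had the smallest p of the group, with 95.8, 123 and 143 CPM in FSK, against 136, 179.7 and 198 CPM in DHPG (-0.53 ± 0.12, adjusted p = 0.016). The FSK libraries other than FSK 1 lay below all of DHPG, and FSK 1, at 143 CPM, lay above DHPG 1, at 136 CPM. Cox5a, a subunit on the matrix side, had 40.5, 80.1 and 84.4 CPM in FSK and 81.1, 117 and 130.1 CPM in DHPG (-0.68 ± 0.21, adjusted p = 0.028), and 4 FSK libraries lay below all of DHPG. Cox4i1, the site of allosteric inhibition by ATP, had 199, 258 and 348 CPM in FSK and 327, 399 and 492 CPM in DHPG (-0.58 ± 0.17, adjusted p = 0.025), and likewise 4 FSK libraries lay below. Cox5b, which binds zinc, gave -0.44 ± 0.13, adjusted p = 0.022 and Cox8a -0.49 ± 0.15, adjusted p = 0.027. Cox7a2l, which ties complexes III and IV into supercomplexes, was lower in FSK than in DHPG as well (-0.39 ± 0.12, adjusted p = 0.026).

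ATP synthase had 7 of 16 genes lower, and 5 of them had no overlap between FSK and DHPG, namely Atp5a1, Atp5b, Atp5d, Atp5g1 and Atp5g3. The catalytic beta subunit Atp5b had 704, 992 and 1049 CPM in FSK, against 1091, 1318 and 1669 CPM in DHPG (-0.54 ± 0.15, adjusted p = 0.021). Atp5a1, the alpha subunit, had 606, 877 and 956 CPM in FSK, against 1002, 1242 and 1493 CPM in DHPG (-0.58 ± 0.15, adjusted p = 0.018). The rotor subunits Atp5c1 (-0.49 ± 0.13, adjusted p = 0.020) and Atp5d (-0.49 ± 0.15, adjusted p = 0.025) were lower too, with Atp5d at 66.4 to 121 CPM in FSK and 122 to 155 CPM in DHPG. Atp5o, the OSCP subunit that holds the catalytic head in place, gave -0.65 ± 0.18, adjusted p = 0.021. Among the small membrane subunits, Atp5k (-0.56 ± 0.28, adjusted p = 0.13), Atp5l, Atp5mpl and Atp5j2 did not pass. Atp5s, the gene that is no structural subunit, had 9.57 to 11.2 CPM in FSK and 7.75 to 11.2 CPM in DHPG (0.12 ± 0.10, adjusted p = 0.39).

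**Figure D4:**
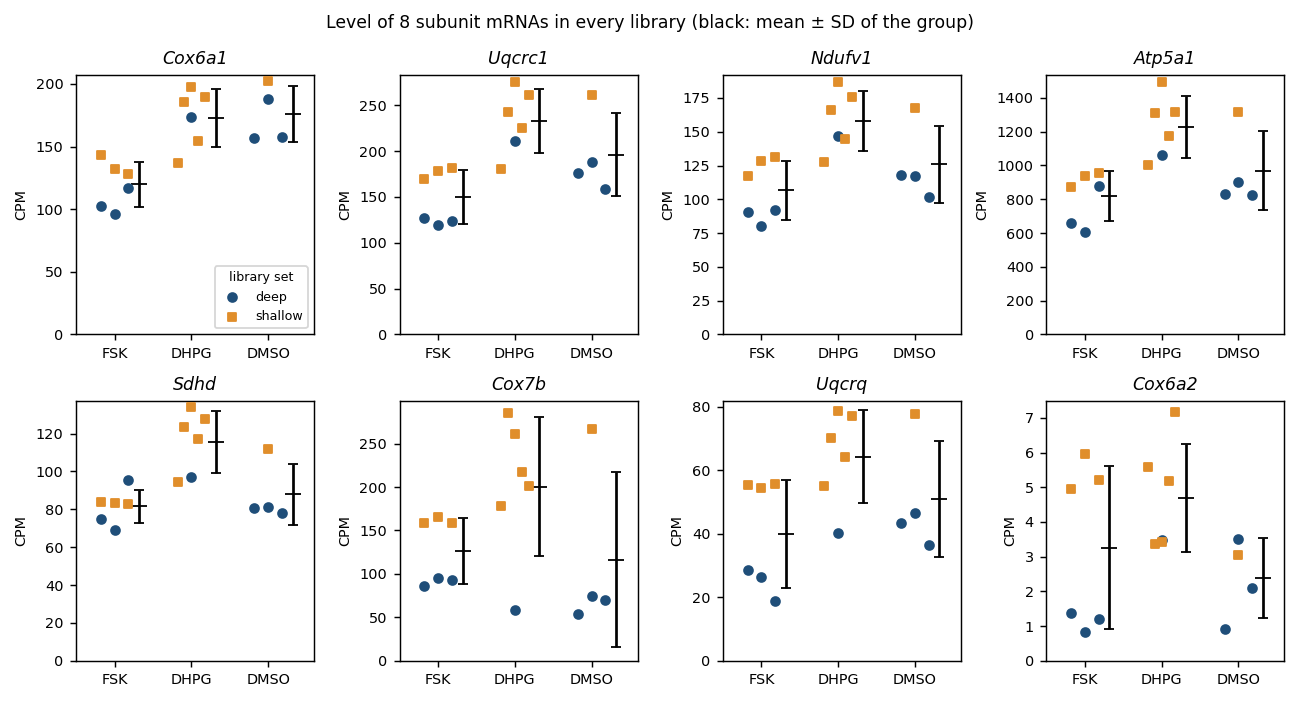
CPM of 8 subunit mRNAs in every library (circles, deep set; squares, shallow set; black, mean ± SD of the group). Cox6a1 is lower in every FSK library than in any DMSO library, while Cox7b and Uqcrq are lower in every deep library than in any shallow one.

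Within the shallow set, FSK 1 to 3 lay below all of DHPG 1 to 5 in 49 of 80 genes, against 10.3% of features, and above them in 0, against 9.68%. Among the deep libraries FSK 4 to 6 lay below DHPG 6 in 44 genes (33.7%) and above it in 12 (33.5%). No gene passed edgeR's test in the shallow libraries alone (62 at unadjusted p under 0.05, and 9 of all features passed). In the FSK against DHPG comparison 7 of 10 microglial markers passed as higher, with a median of 2.71 (0 of 10 with the set term, 5 at unadjusted p under 0.05). Their mean was 3.90 and 4.81 log2 CPM in FSK 4 and FSK 5 only. It was 1.14 to 1.66 in FSK 1 to 3 and 0.08 in FSK 6, against 0.14 to 1.71 in DHPG. Of 8 astrocyte markers 4 were higher (median 0.55), and with the set term 2 were higher and 1 lower (median 0.35). Of 9 excitatory markers 2 were lower in both fits, with medians of -0.23 and, with the term, -0.29. None of these marker lists held a gene at 0 in all libraries. Their part in the subunit values was not tested, beyond the counts without FSK 4 and FSK 5 above.

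Between FSK and DMSO no subunit mRNA passed the same test. Of 80 genes 0 were called (0.809% of features), 8 were under an unadjusted p of 0.05 (21.3% of features), and the median was -0.13, beside 0.02 for all features. The median was 0.02 without DMSO 1, -0.21 without DMSO 4, -0.09 without FSK 4 and -0.08 without FSK 5. DESeq2's Wald test called 3, all lower. Limma-voom with sample quality weights, which changes the tool and the weight of each library together, called 27, of which 22 were higher and 5 lower, with the median at 0.12. Shares of all features for these tools are not given here. By complex the medians were -0.17 for I, -0.12 for II, -0.23 for III, -0.10 for IV and -0.06 for ATP synthase. Leaving out 1 library gave 0, or 1 without DHPG 1 or DHPG 6. Cox6a1 came closest, with 95.8, 123 and 143 CPM in FSK, against 202, 157, 188 and 157 CPM in DMSO 1 to 4. All FSK libraries lay below all DMSO libraries (-0.56 ± 0.13, adjusted p = 0.059). The same was true of Atp5d, with 66.4, 97.8 and 121 CPM in FSK, against 152, 138, 153 and 121 CPM in DMSO (-0.55 ± 0.16, adjusted p = 0.096). Cox5b had 87.9, 118 and 133 CPM in FSK, against 178, 137, 171 and 132 CPM in DMSO, where only FSK 2 entered the DMSO range (-0.45 ± 0.14, adjusted p = 0.10). All FSK libraries lay below all of DMSO in 2 genes (4.36% of features) and above in 1, Atp5s (3.62%), at 9.57 to 11.2 CPM in FSK against 8.39, 8.22, 7.98 and 8.96 CPM in DMSO (0.30 ± 0.12, adjusted p = 0.16). For Ndufv1, Atp5a1 and Sdhd, DMSO 2 to 4 lay below all of DHPG, and FSK against DMSO gave -0.24 ± 0.17, -0.24 ± 0.17 and -0.11 ± 0.13.

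With the library set as a term, 17 of 80 genes were lower in FSK than in DMSO (5.99% of features) and 0 higher (3.45%), with a median of -0.23, and 42 were under an unadjusted p of 0.05 (33.0%). They were 9 of complex I, 4 of complex III, 3 of complex IV and 1 of ATP synthase. Cox6a1 gave -0.62 ± 0.12, adjusted p = 0.011, Cox5b -0.54 ± 0.11, adjusted p = 0.013, Uqcrq -0.66 ± 0.13, adjusted p = 0.014 and Atp5d -0.67 ± 0.14, adjusted p = 0.016. Uqcrc1, Uqcr11, Uqcr10, Cox8a, Ndufb10, Ndufa8, Ndufa12, Ndufs7, Ndufs8, Ndufa13, Ndufb11, Ndufs6 and Ndufa11 were the others, at -0.59 to -0.32. Without FSK 4 and FSK 5 this count was 0 (24 at unadjusted p under 0.05). Leaving out 1 library gave 0 (without DMSO 3), 1 (DMSO 1), 4 (FSK 5), 6 (FSK 4), 8 (DMSO 2), 27 (DHPG 1) or 40 (FSK 6). Shares of all features with libraries left out are not given here. Among the deep libraries alone, FSK 4 to 6 lay below DMSO 2 to 4 in 25 of 80 genes (15.6% of features) and above them in 5 (11.0%), and in the shallow set FSK 1 to 3 lay below DMSO 1 in 74 (39.9%) and above it in 3 (39.6%). In the same fit with the set term, 3 of 9 excitatory neuron markers were lower (median -0.52), and without the term 0 passed (6 at unadjusted p under 0.05, median -0.57). Their mean was 4.79 to 5.18 log2 CPM in FSK, against 5.02 to 5.81 in DMSO. Of 10 microglial markers 3 were higher with the set term (median 2.96) and 0 without it, with all 10 at unadjusted p under 0.05 in both fits. Their mean was 3.90 and 4.81 log2 CPM in FSK 4 and FSK 5, and 0.08 to 1.66 in the other FSK libraries, against -0.24 to 1.21 in DMSO. Of 7 oligodendrocyte lineage markers 2 were higher and 1 lower with the set term, of 8 inhibitory neuron markers 1 was lower, and of 6 cycling markers and 3 endothelial markers 1 each was higher. The part of these markers in the subunit values was not tested.

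Between DHPG and DMSO no subunit mRNA passed either. Of 80 genes 0 were called (0.00582% of features), 17 were under an unadjusted p of 0.05 (12.4% of features), and DESeq2 called 0. Limma-voom with sample quality weights called 62, of which 61 were higher. The share of all features it called is not given here. The median log2 fold change was 0.33, beside -0.01 for all features, and 74 genes were positive. It was 0.49 without DMSO 1, the shallow one. By complex the medians were 0.28 for I, 0.31 for II, 0.34 for III, 0.38 for IV and 0.35 for ATP synthase. Sdhd had the smallest p of complex II, with 94.6, 120.2 and 134 CPM in DHPG, against 112, 80.5, 81.4 and 78.1 CPM in DMSO (0.39 ± 0.13, adjusted p = 0.40). DMSO 1 was the only DMSO library above the lowest DHPG library. With the set term the median was 0.057, 0 genes passed, 1 was under an unadjusted p of 0.05 (2.33% of features), and limma-voom with weights called 0. That median was 0.02 to 0.11 with 1 library left out. Among the shallow libraries the median was -0.057, and DHPG 1 to 5 lay below DMSO 1 in 7 genes (10.3%) and above it in 4 (9.91%).

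More genes passed between the library sets than between any 2 treatments. Deep libraries had lower levels in 69 of 80 genes and higher in 1 (15.6% and 18.9% of features), with treatment in the model, and 74 were under an unadjusted p of 0.05 (45.2%), at a median of -0.49, beside 0.00 for all features. In 32 genes all 7 deep libraries lay below all 9 shallow ones, against 3.59% of features, and in 1 above (6.03%). Without FSK 4 and FSK 5, 60 genes passed (the share of all features is not given here). All 8 genes of complex III were lower, 15 of 16 of ATP synthase, 32 of 35 of complex I, 12 of 16 of complex IV and 2 of 4 of complex II. The medians were -0.64 for III, -0.51 for ATP synthase, -0.47 for I, -0.53 for IV and -0.27 for II. Atp5k, a membrane subunit of ATP synthase and 1 of the NRF1-word genes, had 42.8, 53.0 and 62.4 CPM (lowest, median and highest) in the deep set, against 88.6, 120.4 and 132 CPM in the shallow set (-1.02 ± 0.11, adjusted p = 8.6e-06). Cox6a1, with the same word, did not pass between the sets (-0.23 ± 0.10, adjusted p = 0.078).

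**Figure D5:**
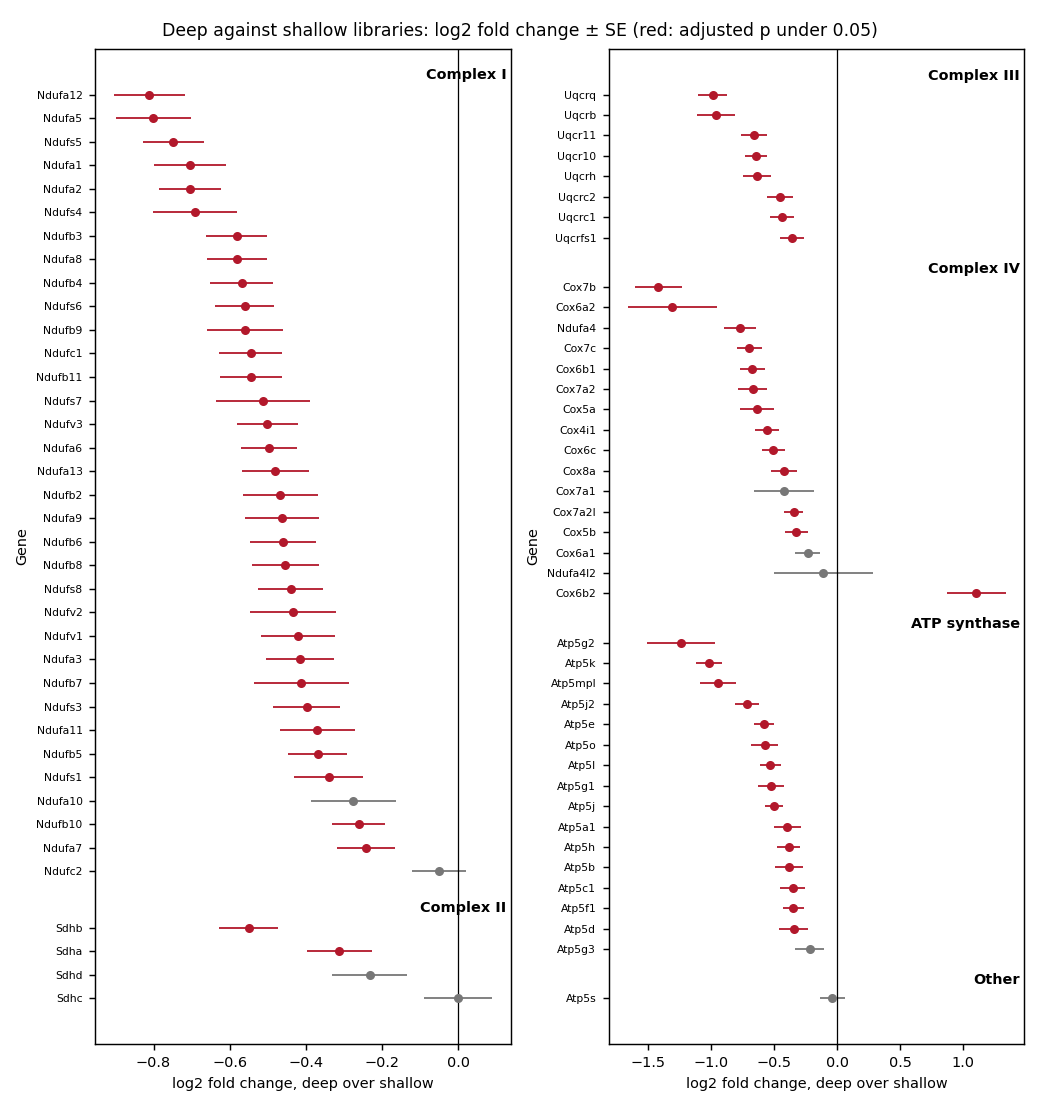
Log2 fold change of the tested subunit genes (1 is not drawn), deep over shallow libraries with treatment in the model, with its standard error (red, adjusted p under 0.05). Of 80 genes 69 are lower in the deep set, and Cox6b2 is higher.

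Cox7b, a small membrane subunit of complex IV, had the most negative estimate between the sets, with 53.6, 74.6 and 95.2 CPM in the deep set, against 158, 201 and 286 CPM in the shallow set (-1.42 ± 0.19, adjusted p = 7.3e-05). Uqcrq, of complex III, had 19.0, 36.4 and 46.6 CPM in the deep set, against 54.4, 64.2 and 78.6 CPM in the shallow set (-0.99 ± 0.11, adjusted p = 2.2e-05). Uqcrb (-0.96 ± 0.15, adjusted p = 3.0e-04) and Atp5mpl (-0.94 ± 0.14, adjusted p = 2.1e-04) were lower too. The sets did not overlap in Cox7b or Uqcrq. Sdhc (0.00 ± 0.09, adjusted p = 0.9994), Ndufc2 (-0.05 ± 0.07, adjusted p = 0.62) and Atp5g3 (-0.22 ± 0.12, adjusted p = 0.16) did not pass. Of 6 markers of cycling cells 5 were lower in the deep set (median -0.88), at 2.90 to 4.54 log2 CPM in the deep and 3.89 to 4.69 in the shallow set. Of 8 astrocyte markers 3 were higher and 1 lower (median 0.45), of 7 fibroblast and mural cell markers 3 were higher and 1 lower (median 0.68), and of 9 excitatory neuron markers 3 were higher and 2 lower (median 0.23). Of 8 inhibitory neuron markers and 7 oligodendrocyte lineage markers 1 each was lower, and 0 of 10 microglial markers passed (1 at unadjusted p under 0.05, median 0.63). Their part in the subunit values was not tested.

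Complex IV has isoform pairs that stand in for each other by tissue. Cox6a2, the muscle-type partner of Cox6a1, was the most variable gene of the group, with an SD of 0.97 over 16 libraries on the log2 scale. It had 0.826 to 3.51 CPM in the deep set, against 3.05 to 7.17 CPM in the shallow set (-1.31 ± 0.35, adjusted p = 0.010). Its 3 lowest libraries were FSK 5, DMSO 2 and FSK 6, at 0.826, 0.911 and 1.20 CPM. Cox6b2, known from testis, was the only gene higher in the deep set, at 3.65 to 7.14 CPM, against 1.15 to 2.82 CPM in the shallow set (1.11 ± 0.23, adjusted p = 0.0020). Its usual partner Cox6b1 was lower in the deep set (-0.67 ± 0.10, adjusted p = 2.0e-04). Cox7a1, another muscle form, had 0.853 to 1.28 CPM in FSK, 0.705 to 1.84 CPM in DHPG and 0.718 to 1.06 CPM in DMSO, and its partner Cox7a2 differed between the sets (-0.67 ± 0.12, adjusted p = 5.9e-04). Ndufa4, now placed in complex IV, gave -0.77 ± 0.12, adjusted p = 3.3e-04 between the sets, while its paralog Ndufa4l2 never exceeded 0.623 CPM. Cox4i2, Cox7b2, Cox8b and Cox8c had too few counts to test. Cox8c had 0 counts in all 16 libraries, which allows up to 3 counts in each.

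The 3 genes for the c ring of ATP synthase, which encode the same mature protein, were measured apart. Atp5g2, an NRF1-word gene, had 4.92 to 14.5 CPM in the deep set, against 18.5 to 32.2 CPM in the shallow set (-1.24 ± 0.27, adjusted p = 0.0026). FSK 5, DMSO 3 and DMSO 4 were its 3 lowest libraries, at 5.20, 4.92 and 5.30 CPM. Atp5g1 passed both between FSK and DHPG (-0.57 ± 0.17, adjusted p = 0.027) and between the sets (-0.52 ± 0.11, adjusted p = 0.0017). Atp5g3 passed only the first (-0.48 ± 0.13, adjusted p = 0.021), and the difference between the 3 genes was not tested. Over the 80 genes the median SD across libraries was 0.35 log2 units, beside 0.36 for all features. Ndufc2 varied least, with an SD of 0.14.

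Genes that serve the chain were counted in the same FSK against DHPG fit. Of all features 14.4% were lower and 16.3% higher there, and 11.9% and 11.4% with the set term. Of 46 assembly factors 16 were lower and 1 higher, with a median of -0.22 (12 and 1 with the set term). Sco2, a copper chaperone for complex IV, had 6.55 to 10.3 CPM in FSK, 10.1 to 16.1 CPM in DHPG and 12.2 to 14.3 CPM in DMSO. It was lower against DHPG (-0.65 ± 0.13, adjusted p = 0.016) and was the only assembly factor to pass against DMSO without the set term (-0.67 ± 0.15, adjusted p = 0.045). With the term 7 of 46 were lower against DMSO (15.2%, beside 5.99% of all features). Cox10, of heme a synthesis, gave -0.34 ± 0.10, adjusted p = 0.091 against DMSO. Ndufaf4, a complex I assembly factor, was the 1 that was higher (0.42 ± 0.13, adjusted p = 0.028). Of 17 citric acid cycle genes 11 were lower (median -0.36; 9 lower and 1 higher with the set term), among them Mdh2 (-0.68 ± 0.18, adjusted p = 0.019) and Ogdh (-0.48 ± 0.11, adjusted p = 0.017). Of 14 genes for electron carriers and ADP/ATP exchange 7 were lower (median -0.36; 4 with the set term), among them Cyc1, the heme subunit of complex III that the symbols above leave out (-0.59 ± 0.18, adjusted p = 0.029), and the outer membrane channel Vdac1 (-0.59 ± 0.17, adjusted p = 0.021).

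Among the mRNAs from mitochondrial DNA, 5 of 13 were higher in FSK than in DHPG and 0 lower (median 0.86). mt-Cytb, the complex III subunit of this genome, had 587 to 1370.3 CPM in FSK, 346 to 649 CPM in DHPG and 426 to 663 CPM in DMSO. It was higher than in DHPG (0.74 ± 0.19, adjusted p = 0.018), as was mt-Atp6 of ATP synthase (1.71 ± 0.50, adjusted p = 0.023). With the set term 1 of the 13 passed. Against DMSO 0 of 13 passed (3 at unadjusted p under 0.05, median 0.57), and mt-Co3 gave 1.53 ± 0.48, adjusted p = 0.11. Between the sets 7 of 13 were higher in the deep one (beside 18.9% of all features), with a median of 0.86, led by mt-Nd2 (1.85 ± 0.19, adjusted p = 8.6e-06). Of 16 regulators of mitochondrial gene expression 4 were higher and 2 lower in FSK than in DHPG (25% and 12.5%, beside 16.3% and 14.4% of all features), and 2 and 1 with the set term. Ppargc1a, the coactivator PGC-1alpha, had 10.4 to 20.3 CPM in FSK, 9.17 to 13.3 CPM in DHPG and 13.4 to 19.3 CPM in DMSO (0.54 ± 0.16, adjusted p = 0.024). Gabpa, the GABP subunit that binds the ETS word above, was also higher (0.79 ± 0.18, adjusted p = 0.017), while the nuclear receptor Esrra was lower (-0.50 ± 0.16, adjusted p = 0.030).

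Between FSK and DMSO, 0 of 16 regulators, 0 of 17 citric acid cycle genes and 0 of 14 carriers passed without the set term (5, 1 and 1 at unadjusted p under 0.05). Of all features 0.809% passed there and 21.3% were at unadjusted p under 0.05. With the term, 1 regulator was higher and 1 lower, and 1 citric acid cycle gene was lower. Among mitochondrial mRNAs 1 of 13 was higher, and 0 carriers passed (8 at unadjusted p under 0.05). Of all features 3.45% were higher and 5.99% lower with the term, and 33.0% were at unadjusted p under 0.05. Without the term, the smallest p among the regulators was that of Mterf3 (0.47 ± 0.13, adjusted p = 0.082), among citric acid cycle genes that of Dld (0.49 ± 0.18, adjusted p = 0.15) and among carriers that of Etfa (0.46 ± 0.15, adjusted p = 0.12). Between DHPG and DMSO, 0 genes of the 5 lists passed edgeR's test (10 at unadjusted p under 0.05; other tools were not run on these lists). Ppargc1a (-0.50 ± 0.18, adjusted p = 0.40), mt-Nd2 (-1.45 ± 0.54, adjusted p = 0.40), Ndufaf7 (0.30 ± 0.09, adjusted p = 0.40) and Vdac3 (0.45 ± 0.19, adjusted p = 0.40) had the smallest p of their lists.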

How the data were processed

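Total RNA was measured in 16 libraries (6 FSK, 6 DHPG and 4 DMSO). Per the labels' protocols, RNA was extracted with Trizol and chloroform and made into stranded total RNA libraries. The submitters' processing notes name Salmon, DESeq and the build GRCm38, without versions. The deposited table holds estimated counts (26.6% are not whole), which were rounded. Its control columns were matched to DMSO samples by number. The miRNA libraries were not used here. Some genes in the counts are not reported here by name.

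Features were filtered by filterByExpr (minimum count 10, leaving 17173) and tested with edgeR 4.0.16 in R 4.3.3. The test was the quasi-likelihood F test with robust estimation and TMM factors, with the 3 treatments in 1 fit and Benjamini-Hochberg adjustment at 0.05. Adjusted p-values without a tool named come from this fit, and fold changes are given with standard errors. CPM values use TMM factors, and log2 CPM a prior count of 2. Deep libraries had at least 30000000 counts. DESeq2 1.42.0, limma 3.58.1 and the other alternatives are covered below. Libraries held 20677117 to 59958600 counts. Any 2 libraries of a group differed by a chi-square of at least 5.88 per degree of freedom, so none was a copy of another. FSK 1 to 3 were the most alike, at 5.88 (FSK 1 and 2), 7.57 (FSK 2 and 3) and 11.8 (FSK 1 and 3). All other pairs within a group were at 16.3 or above. These values cannot show whether libraries came from separate cultures or from 1 pool of RNA. The test was checked on simulated data that held no difference between library sets, so that check does not bear on the part of the set.

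Members, lists and the rule for named genes were chosen with earlier results of these data known. Named are genes that pass (up to 30), the smallest p of each complex, core subunits, isoform pairs, extremes of level and spread, and the 2 smallest p of each pathway list against DMSO. Others named were chosen after their values were seen. Markers came from fixed lists. RefSeq found all 84 genes by symbol or synonym.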

Additional observations from a re-analysis of the deposited data

Results flagged for a closer look

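Each treatment's values, on the log2 CPM scale, were checked for a library whose gap to its nearest neighbour filled an unusually large part of the group's range. Of 231 groups of values, for named genes and for means, 26 had one. Chance gives about 1 in 20 for a single group, but genes that move together are not independent. DHPG 6, the 1 deep library of its group, was far below the other DHPG libraries in 19 genes. Its CPM values were Atp5j (43.9), Atp5j2 (81.9), Atp5k (55.1), Atp5l (86.4), Atp5mpl (42.3), Cox6b1 (121), Cox6c (117), Cox7a2 (114), Cox7b (58.1), Cox7c (53.8), Ndufa1 (16.6), Ndufa12 (33.0), Ndufa4 (132), Ndufa5 (24.7), Ndufa6 (49.5), Ndufb3 (30.1), Ndufs4 (34.3), Ndufs5 (48.2) and Uqcrb (30.1). DMSO 1, the 1 shallow library of its group, was far above the other DMSO libraries in 6 genes, with CPM values of Ndufa8 (91.5), Ndufa9 (117), Ndufb3 (49.8), Ndufb9 (165), Sdhd (112) and Uqcrc2 (229.9). FSK 3 was far above the other FSK libraries in Ndufa4l2, at 0.623 CPM against 0.19 to 0.27 CPM. The 25 values from DHPG 6 and DMSO 1 go with the library set, whose part in them was not tested.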

How the results depend on the processing

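Most calls moved with single libraries or with the set, and no named gene that passed changed sign in any alternative. Shares of all features are not given for most settings here, so changed counts cannot be read as particular to the subunits. For FSK against DHPG (36 members called) leaving out 1 library gave 9 to 55: 9 without DHPG 3, 10 without FSK 5, 14 without DHPG 5, 15 without FSK 4, 17 without DHPG 2 and 55 without DHPG 6. It gave 5 with library totals unscaled by TMM, 0 without FSK 4 and FSK 5 (17 with the set term), 0 in the deep libraries alone and 0 in the shallow alone. With the set term (38) it was 66 by limma-voom (here always with sample quality weights), 17 without FSK 4 and FSK 5, and 0 to 52 with 1 library left out: 0 without DHPG 6 or FSK 1, 14 without DHPG 3, 18 without DHPG 5 and 52 without FSK 6.

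For FSK against DMSO (0) the count was 17 with the set term and 3 by DESeq2, all of them lower. By limma-voom it was 27, most of them higher. It was 1 in the deep libraries alone and 0 to 1 with 1 library left out (1 without DHPG 1 or DHPG 6). Shares of all features for DESeq2 and limma-voom are not given here. The median of -0.13 ran from -0.21 without DMSO 4 to 0.02 without DMSO 1. With the set term (17) it was 35 by DESeq2, 47 by limma-voom, 0 without FSK 4 and FSK 5, and 0 to 40 with 1 library left out: 0 without DMSO 3, 1 without DMSO 1, 4 without FSK 5, 6 without FSK 4, 8 without DMSO 2, 27 without DHPG 1 and 40 without FSK 6. For DHPG against DMSO (0) it was 62 by limma-voom, nearly all higher. The median of 0.33 became 0.057 with the set term and -0.057 in the shallow libraries. For deep against shallow the count kept within 64 to 74 with 1 library left out. Its median of -0.49 became -0.69 without TMM, where all features moved to -0.20, and -0.61 with the replicate block.

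Whether replicate numbers pair the samples could not be decided, and the labels do not say what a number shares. Over 14 pairs of same-numbered libraries the correlations of deviations ran from -0.41 to 0.39. The deviations were taken from group means that mix deep and shallow libraries, so they also carry the set. With the replicate block 0 members passed for FSK against DMSO, 0 for DHPG against DMSO, 39 for FSK against DHPG and 66 between the sets. DESeq2 size factors, the weaker filter, no filter and leaving out mitochondrial features kept every count within 1.5 times. Leaving mitochondrial features out, and the set-term repeats, were chosen after seeing the data. The cause of these shifts was not tested. Low counts, in deep and shallow libraries alike, kept 4 isoforms from being tested. Cox4i2, Cox7b2, Cox8b and Cox8c had at most 18, 6, 9 and 0 counts in any library. Ndufa4l2, Cox7a1 and Cox6a2 had few counts (2 to 22, 14 to 50 and 34 to 161 a library).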
